A study of Mus musculus with 21 samples.

Results

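The cells of the main olfactory epithelium that did not express the mCherry reporter were compared between mice carrying a Mex3a fusion construct (MexHT) and mice carrying the same construct without Mex3a (HT). The libraries were chosen by their labels: 5 MexHT and 3 HT mCherry-negative libraries of mice with 2 drivers, 8 of the 21 libraries of the series. No measured value entered this rule, but the libraries were chosen with earlier results of these data known. HyperTRIBE is the catalytic domain of an adenosine deaminase that edits the RNAs bound by the protein to which it is joined. Per the labels, the MexHT mice carried tetO-Mex3a_HyperTRIBE_mCherry and the HT mice tetO-HyperTRIBE_mCherry. In every mouse of both groups the construct was driven by gg8tTA, which is active in immature olfactory sensory neurons (OSN), together with OMPtTA, which adds mature OSN. The HT mice are therefore controls that also carry the editing domain, mCherry and both drivers, and no mouse without a construct was compared. The negative cells are described as the internal control of the sorted neurons of the same mouse. Ages and sexes, and whether any library pooled mice, are not given in the sources used here. Because nothing states that the libraries of a group are separate litters or sorting days, the p-values below measure the spread between these libraries, which may be technical.

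The olfactory epithelium renews its neurons throughout life. Horizontal and globose basal cells give rise to neurogenic progenitors, then to immature OSN that extend axons, then to mature OSN. A mature OSN detects odors through 1 odorant receptor, which acts through the G protein alpha subunit Gnal and adenylyl cyclase Adcy3 to raise cAMP and open the Cnga2, Cnga4 and Cngb1 channel. Sustentacular cells, Bowman's glands and microvillous cells surround the neurons, and the tissue lies on connective tissue, vessels, nerve bundles and turbinate bone. Mex3a is an RNA-binding protein with KH domains and a RING finger that is known from stem and progenitor cells. The comparison asks how far the cells outside the reporter gate differ between the constructs, which is the background for any comparison of the neurons inside it.

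The deposited values were TPM, transcript levels scaled for gene length and to a fixed total per library. The recovered depth was 8406346 to 10907863 counts in the MexHT negative libraries and 8756099 to 11067342 in the HT negative libraries. Of 23587 genes, 16860 had a mean of at least 1 TPM over the 8 libraries and were tested. MexHT negative libraries had 16399.2 ± 144.5 genes at 1 TPM or more (SD, n = 5) and HT negative libraries 16634.3 ± 215.2 (n = 3). That difference of -235.1 genes did not exceed the spread between libraries (exact permutation test, two-sided, p = 0.179, adjusted over 2 tests 0.179, where the smallest p that 5 against 3 libraries can give is 0.0357).

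The RNA of the negative cells came from a broad mixture, and mature neurons were part of it. The gene with the highest mean level was Col1a1, the main chain of type I collagen, at 9252 TPM (4794 to 14353 over the 8 libraries). Rn45s, the ribosomal RNA precursor, followed at 7624 TPM, and Rpph1, the RNA of ribonuclease P, at 7379 TPM. Col1a2, the second type I collagen chain, stood at 5585 TPM and the neutrophil protein gene S100a9 at 3712 TPM. The others of the 10 highest were Rmrp, Scarna10, Scarna2, Actb and Malat1. Read by their fixed marker lists, fibroblast genes summed to 7986 to 23933 TPM per library and genes of the later neutrophil granules to 6425 to 15944 TPM. The 18 genes of mature OSN and odor transduction summed to 1967 to 18885 TPM, and 14 genes of immature OSN to 3096 to 5111 TPM. The label mCherry-negative therefore does not mean free of neurons: Omp, the marker of mature OSN, averaged 2361 TPM in the sorted HT neurons and still stood at 1986, 2159 and 1093 TPM in the HT negative libraries. Fibroblast, bone and granulocyte genes were far more abundant in the negative cells than in the sorted neurons, with mean sums of 15853, 3086 and 12997 TPM for fibroblasts, osteoblasts and later neutrophil granules there against 198.7, 52.86 and 270.5 TPM over the 9 sorted neuron libraries. In bulk RNA of this kind, fewer cells of a type and less RNA per cell cannot be told apart.

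**Figure D1:**
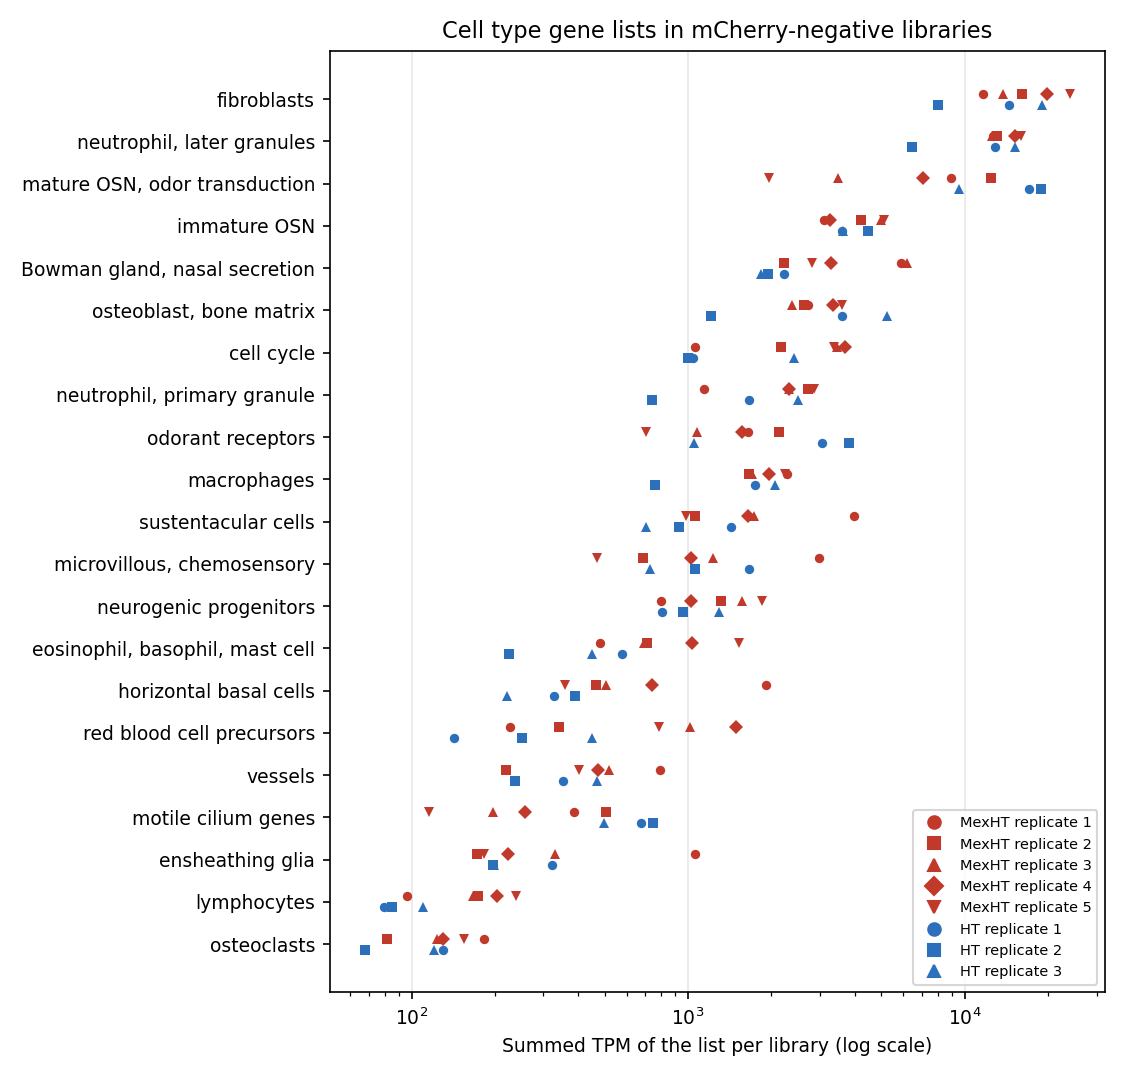
Summed TPM of each marker list (log axis) in every mCherry-negative library, with MexHT in red and HT in blue and 1 symbol shape per replicate number. The mature OSN sum spans 1967 to 18885 TPM, while the immature OSN sum stays between 3096 and 5111 TPM.

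The genes leading the first 2 principal components of the 8 libraries were cell type genes. The first principal component held 46.7% of the variance over the tested genes. Its positive end was led by the mature OSN genes Stoml3, Umodl1 and S100a5, and its negative end by genes of red blood cell precursors such as Hemgn, Rhag, Gfi1b and Klf1, and by Xist. MexHT replicates 1 to 5 scored 8.2, 17.4, -44.2, -27.5 and -70.4 on it, and HT replicates 1 to 3 scored 48.9, 68.8 and -1.1. The groups overlapped, since HT replicate 3 lay below MexHT replicates 1 and 2. The second component (17.4%) placed MexHT replicate 1 at 63.6 and the other 7 libraries between -27.3 and 9.5. Its positive end held the sustentacular and secretory genes Cyp2g1, Ugt2a1, Cyp2a5 and Bpifa1 and the glial gene Fabp7. Genes of red blood cell precursors such as Ermap, Rhd, Rhag and Kel led its negative end, and these also stood at the negative end of the first. The third component (11.6%) placed HT replicate 3 at 50.2 and the other libraries between -21.9 and 13.0, with Xist and Tsix leading its negative end.

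**Figure D2:**
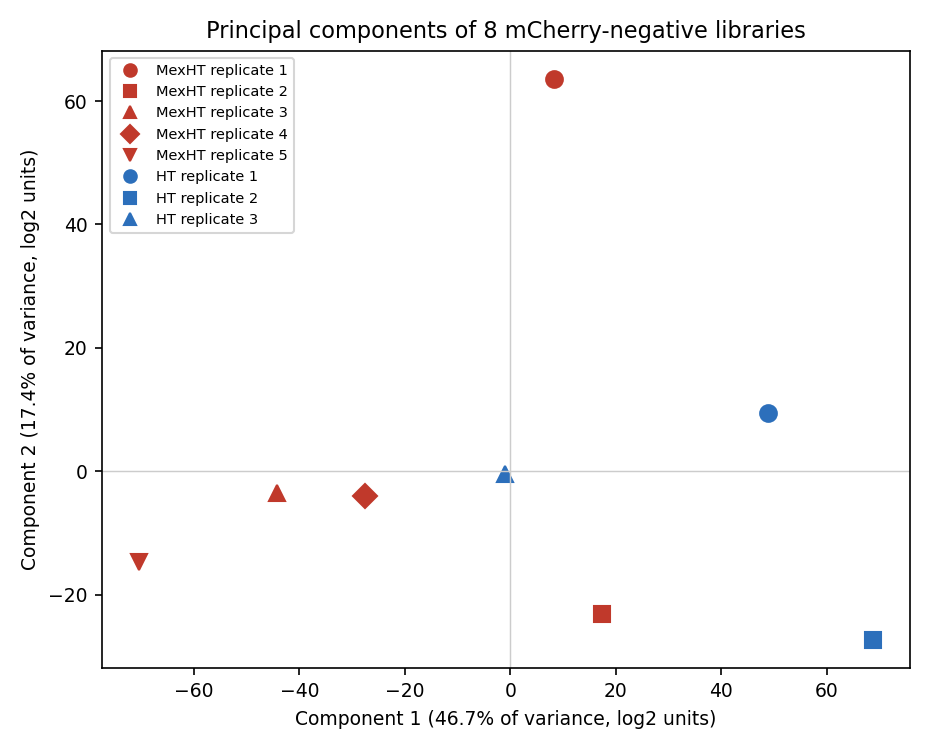
Scores of the 8 mCherry-negative libraries on the first and second principal components of log2(TPM + 1), in log2 units, with MexHT in red and HT in blue. MexHT replicate 1 stands apart on the second component at 63.6, and HT replicate 3 sits at -1.1 on the first, between the MexHT libraries.

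No gene passed the threshold between the constructs in the negative cells. With limma on log2(TPM + 1), 0 of 16860 genes (0%) had an adjusted p under 0.05 (Benjamini-Hochberg), and the lowest adjusted p was 0.218. Without adjustment 3465 genes (20.6%) had p under 0.05, of which 1218 (7.22% of those tested) were higher in MexHT and 2247 (13.3%) lower. The groups did not overlap for 613 genes higher in MexHT (3.64%) and 855 lower (5.07%), 1468 in all (8.71%). A fit of the recovered counts with voom also gave 0 calls, with 3456 genes at an unadjusted p under 0.05. The unadjusted count rested on single libraries: it was 1383 without HT replicate 2, 1585 without HT replicate 1, 2125 without MexHT replicate 3, 2309 without MexHT replicate 4 and 5082 without HT replicate 3. In the sorted neurons of the same constructs, 5907 of 16067 genes (36.8%) passed the same test, with 6 MexHT and 3 HT libraries. Below, a log2 difference is the MexHT mean minus the HT mean of log2(TPM + 1), and the values of the 8 libraries are given in the order of their replicate numbers. The median log2 difference over all genes tested was -0.01, with 48.8% of genes above 0.

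The labels were checked first by Mex3a, the gene that the MexHT fusion adds. It stood at 57.81, 105.6, 143.9, 93.69 and 206.8 TPM in the MexHT negative libraries and at 29.31, 58.38 and 74.35 TPM in the HT negative libraries. The groups overlapped through MexHT replicate 1, and 4 of 5 MexHT libraries were above all HT libraries. The log2 difference was 1.13, which did not exceed the spread between libraries (exact permutation test, two-sided, p = 0.107, adjusted over 2 tests 0.179). Without HT replicate 1 it was 0.75. Among replicates 1, 2 and 3, whose numbers were taken to pair the libraries, MexHT was higher in each of the 3 pairs, with a mean log2 difference of 0.92 (exact permutation p = 0.25, the smallest that 3 pairs can give). The sorted neurons had 551.1 TPM on average with MexHT and 39.18 TPM with HT, so MexHT negative cells held much less Mex3a RNA than the neurons inside the gate. Adar, an adenosine deaminase that edits double-stranded RNA, stood at 52.45 to 90.49 TPM in MexHT and 50.99 to 57.24 TPM in HT negative cells (log2 difference 0.28 ± 0.17, SE, limma adjusted p = 0.344). In the sorted neurons it averaged 586.5 TPM with MexHT and 1079 TPM with HT. Neither negative group thus showed the high Adar level of the neurons inside the gate. Among relatives, Mex3b stood at 17.72 to 48.66 TPM in MexHT and 14.01 to 19.76 TPM in HT negative cells (log2 difference 0.76 ± 0.32), Mex3c differed by -0.02 ± 0.16 and Mex3d by 0.48 ± 0.22. Adarb1, a second editing enzyme, was at 14.08 to 21.48 TPM in MexHT and 25.51 to 26.53 TPM in HT, without overlap (log2 difference -0.49 ± 0.17, limma adjusted p = 0.218).

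**Figure D3:**
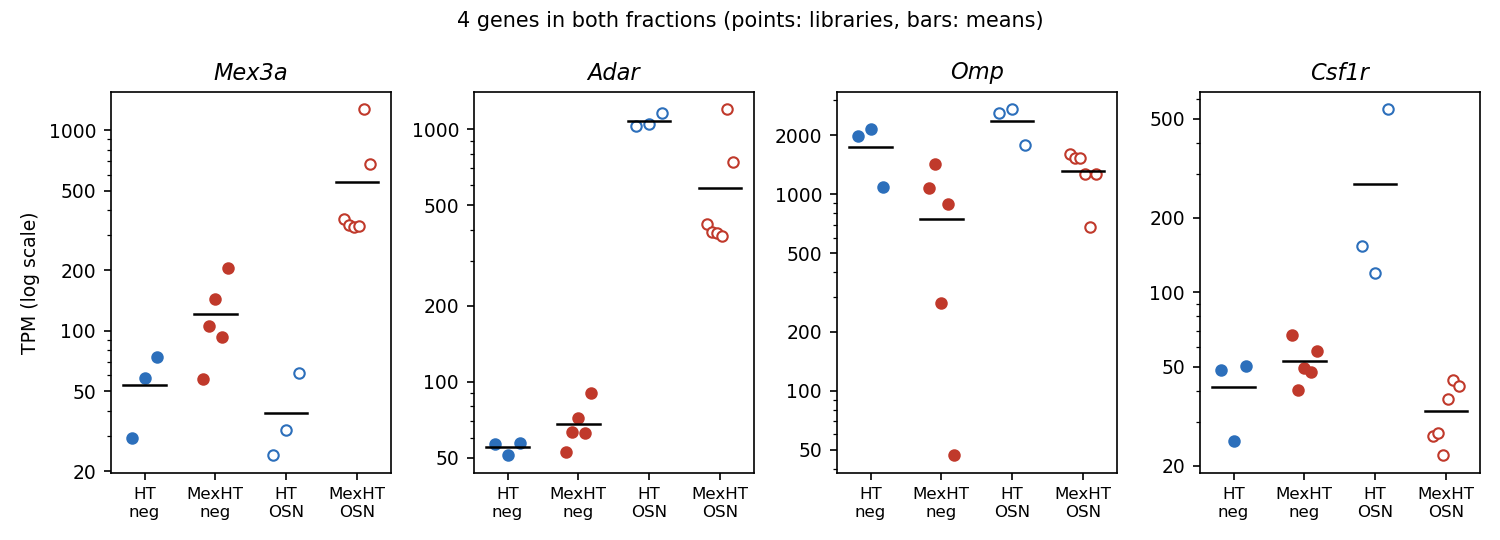
TPM (log axes) of Mex3a, Adar, the mature OSN marker Omp and the macrophage receptor gene Csf1r in HT and MexHT libraries of negative cells (filled points) and sorted neurons (open points), with black bars at the group means. Adar is at most 90.49 TPM in the 8 negative libraries, whereas Omp reaches 2159 TPM there.

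Mature OSN genes had lower levels in MexHT negative cells throughout their list. The log2 difference was below 0 for 18 of 18 genes, from -2.44 to -0.59 with a median of -1.56, beside -0.01 over all genes. By limma 8 of the 18 (44.4%) had an unadjusted p under 0.05 and lower values in MexHT, beside 13.3% of all genes, and 0 passed the adjusted threshold. None of the 18 separated the groups fully. The genes together summed to 8886, 12437, 3473, 7052 and 1967 TPM in the MexHT libraries, and to 17091, 18885 and 9506 TPM in the HT libraries. Every MexHT sum except that of replicate 2 was below the lowest HT sum, and the MexHT libraries themselves spread from 1967 to 12437 TPM. In replicates 1, 2 and 3, whose pairing by number was taken from these same data, the HT sum was the higher each time. With each library left out in turn, 18 of 18 genes remained below 0 and the median ranged from -1.92 to -1.08, but the number at an unadjusted p under 0.05 was 0 without HT replicate 1 or HT replicate 2, 1 without MexHT replicate 3, 5 without MexHT replicate 4 and 16 without MexHT replicate 2. With the replicate number as a block the difference rested on the 3 pairs alone, since MexHT replicates 4 and 5 have no HT partner. The median was then -1.05, and 18 of 18 had an unadjusted p under 0.05 while 0 passed the adjusted threshold. Over all genes 3311 had an unadjusted p under 0.05 in that fit, in either direction.

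Receptor signalling genes varied together down the cascade. Gnal, the olfactory G protein alpha subunit, stood at 647.9, 915, 229.3, 519.5 and 76.53 TPM in MexHT and 1232, 1399 and 625.3 TPM in HT (log2 difference -1.54 ± 0.74, SE). Its beta and gamma partners Gnb1 and Gng13 differed by -0.59 ± 0.26 and -1.17 ± 0.45. Adcy3, the cyclase, stood at 356.2, 542.7, 71.34, 267 and 49.66 TPM in MexHT and 740.2, 828 and 371.9 TPM in HT (log2 difference -1.76 ± 0.77). In each of these genes MexHT replicate 5 was the lowest library and HT replicate 2 the highest. The channel subunits followed, with Cnga2 at -1.59 ± 0.67, Cnga4 at -2.25 ± 1.02 and Cngb1 at -2.06 ± 0.95. Ano2, the chloride channel that amplifies the response, differed by -1.52 ± 0.69, and Pde1c and Slc24a4, which end it by clearing cAMP and calcium, by -1.18 ± 0.58 and -1.65 ± 0.76. The receptor export proteins Rtp1 and Rtp2 differed by -1.13 ± 0.44 and -1.19 ± 0.46. Omp, the abundant olfactory marker protein gene, stood at 1076, 1431, 279.3, 892 and 46.88 TPM in MexHT and 1986, 2159 and 1093 TPM in HT (log2 difference -1.90 ± 1.02, limma adjusted p = 0.303). Umodl1 had the lowest log2 difference of the list, -2.44 ± 1.18, with 11.01 TPM in MexHT replicate 5 against 553.9 to 989.3 TPM in HT.

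The sequences before the start sites of the mature OSN genes were searched for the motif CCCNNGGG. It is the core of the site of the Ebf (Olf-1) factors, which are known regulators of olfactory genes. Whether the motif bears on the variation between libraries was not tested. The motif reads the same on both strands. RefSeq promoters (build GRCm38.p6) were matched for 15 of the 18 genes, and 8 of these held CCCNNGGG within 250 bases before a start site: Umodl1, Cngb1, Slc24a4, Cnga2, Ano2, Gfy, Rtp2 and Gng13. By windows, since a gene may have several start sites, 8 of 22 (36.4%) held it, beside 11.8% of all 32851 windows of that length. The 4 genes with a match and the lowest log2 differences are printed 5′ to 3′ on the strand of the gene, with the motif in capitals. A match describes the letters and is not evidence of binding.
Umodl1, GRCm38.p6 chr17:30954433-30954682, plus strand: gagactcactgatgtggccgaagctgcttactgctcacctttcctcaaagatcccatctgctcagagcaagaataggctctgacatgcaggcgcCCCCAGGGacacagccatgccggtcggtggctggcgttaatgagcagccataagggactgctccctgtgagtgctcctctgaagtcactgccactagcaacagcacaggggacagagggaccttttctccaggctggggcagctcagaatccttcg
Cngb1, GRCm38.p6 chr8:95306586-95306835, minus strand: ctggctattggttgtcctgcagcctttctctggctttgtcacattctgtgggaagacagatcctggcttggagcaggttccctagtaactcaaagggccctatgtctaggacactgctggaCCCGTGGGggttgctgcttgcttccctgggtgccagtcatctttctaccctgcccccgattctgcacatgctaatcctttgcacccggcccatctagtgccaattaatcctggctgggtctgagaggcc
Slc24a4, GRCm38.p6 chr12:102128477-102128726, plus strand: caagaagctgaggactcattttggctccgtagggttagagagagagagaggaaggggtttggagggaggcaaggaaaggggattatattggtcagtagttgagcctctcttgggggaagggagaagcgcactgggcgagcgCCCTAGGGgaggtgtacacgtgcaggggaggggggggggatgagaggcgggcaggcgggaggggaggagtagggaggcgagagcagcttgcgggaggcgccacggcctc
Cnga2, GRCm38.p6 chrX:71991599-71991848, plus strand: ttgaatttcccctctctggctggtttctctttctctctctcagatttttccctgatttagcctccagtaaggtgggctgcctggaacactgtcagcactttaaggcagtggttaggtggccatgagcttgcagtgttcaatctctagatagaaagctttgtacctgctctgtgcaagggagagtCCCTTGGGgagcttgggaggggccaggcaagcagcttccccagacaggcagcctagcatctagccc

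Each odorant receptor gene is chosen by a small share of mature OSN. The table holds 1098 of them, and 579 reached the mean of 1 TPM, which admits receptors through the libraries where they are high. Of these 579, 541 had a log2 difference below 0 and 38 above, with a median of -0.55. With no filter 147 of 1090 were above 0 and the median was -0.36, with 136 lower at an unadjusted p under 0.05. By limma 74 (12.8%) had an unadjusted p under 0.05 and lower values in MexHT, beside 13.3% of all genes, and 25 (4.32%) did not overlap, beside 5.07%, so both shares were near those of all genes. In MexHT 489, 590, 370, 513 and 220 receptors reached 1 TPM, compared with 724, 838 and 305 in HT. Their levels summed to 1645, 2139, 1073, 1568 and 706.9 TPM in MexHT and 3059, 3830 and 1048 TPM in HT. HT replicate 3 was within the MexHT range by both measures. Without that library the median over receptors was -0.92, and 322 of 607 were lower at an unadjusted p under 0.05. Without HT replicate 2 the median was -0.28, and 16 of 498 were lower and 2 higher at that limit. The count over all genes moved in the same 2 fits, from 3465 to 5082 and 1383. Olfr1392 stood out among them, with 3.731, 2.878, 1.993, 2.94 and 1.641 TPM in MexHT and 12.42, 9.295 and 8.586 TPM in HT (log2 difference -1.63 ± 0.25, limma adjusted p = 0.218).

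Motile cilium genes varied as the mature OSN genes did. They had been listed as markers of respiratory ciliated cells, but the data go against that name: their mean sum was 777.3 TPM in the sorted neurons and 422.7 TPM in the negative cells, and Sntn, a marker of ciliated airway cells, was at most 1.851 TPM. All 6 tested genes were lower in MexHT with an unadjusted p under 0.05 by limma, beside 13.3% of all genes (median -1.11), and 2 of them, Tppp3 and Dnah5, did not overlap, beside 5.07%. The number at an unadjusted p under 0.05 was 2 without HT replicate 1, 1 without HT replicate 2 and 1 with the Xist level in the fit, and all 6 stayed below 0 in each of these fits. Foxj1, the regulator of ciliogenesis, stood at 62.87, 81.89, 29.65, 41.32 and 20.23 TPM in MexHT and 92.8, 123.2 and 60.11 TPM in HT (log2 difference -1.06 ± 0.44, limma adjusted p = 0.233). MexHT replicate 5 was the lowest library and HT replicate 2 the highest, as for Gnal and Adcy3.

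Immature neurons did not follow the mature ones. Of 14 immature OSN genes, 8 had a log2 difference above 0 and 6 below, with a median of 0.13. Gap43, the growth cone protein gene, stood at 163.8, 274.3, 496.1, 236.4 and 488.3 TPM in MexHT and 199.1, 272.5 and 187 TPM in HT (log2 difference 0.49 ± 0.37). Gng8, whose regulatory sequence gives the gg8 driver its name, differed by 0.40 ± 0.28. The cytoskeletal gene Stmn4 lay at the lower end, -1.07 ± 0.50, and Marcksl1, a protein kinase C substrate gene, at the upper end, 0.71 ± 0.20, where the groups did not overlap.

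Progenitor and proliferation genes were higher in MexHT negative cells on balance, and again 0 passed the adjusted threshold. Of 12 neurogenic progenitor genes, 10 were above 0 (median 0.61), and Kit and Neurog1 (2 genes, 16.7%) had an unadjusted p under 0.05 by limma, beside 7.22% of all genes. That number was 0 without MexHT replicate 3, HT replicate 1 or HT replicate 2, 1 without MexHT replicate 2 or 5, 5 without HT replicate 3 or with the replicate number as a block, and 6 without MexHT replicate 1, and the median ranged from 0.34 to 0.90. Neurog1, the proneural factor of OSN precursors, stood at 8.61, 24.53, 34.56, 21.08 and 48.48 TPM in MexHT and 5.423, 11.38 and 13.22 TPM in HT (log2 difference 1.26 ± 0.50). All 22 cell cycle genes were above 0 (median 0.79), with Pcna, Cdk1 and Mcm2 at an unadjusted p under 0.05 (13.6%, beside 7.22% of all genes). That number was 21 without MexHT replicate 1, 18 without HT replicate 3 and 1 without any 1 of the other 6 libraries, while 22 of 22 stayed above 0 each time. Without MexHT replicate 1 and without HT replicate 3 the count over all genes also rose, from 3465 to 4559 and 5082. With the Xist level in the fit the cell cycle number was 0. Mki67, the proliferation marker, stood at 148.5, 360, 649.4, 785.4 and 631 TPM in MexHT and 164.9, 175.5 and 437.7 TPM in HT (log2 difference 0.93 ± 0.56, limma adjusted p = 0.347). MexHT replicate 1 lay with the 2 low HT libraries, and HT replicate 3 with the MexHT libraries. The replication-dependent histone genes, whose RNAs are made in S phase, were above 0 for 56 of 57 tested (median 0.72), with 26 at an unadjusted p under 0.05 and higher in MexHT (45.6%). Cytosolic ribosomal protein genes were above 0 for 77 of 80 tested (median 0.39), with 42 (52.5%) at an unadjusted p under 0.05. Without HT replicate 1 or HT replicate 2 the histone number was 3 in either case and the ribosomal number 3 and 1, and the medians remained above 0. Dividing marrow cells and dividing basal cells both express these genes. In the same libraries red blood cell precursor genes summed to 227.1, 342, 1019, 1493 and 782.7 TPM in MexHT and 142.5, 250.3 and 448.7 TPM in HT. Their part in the proliferation values was not tested.

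**Figure D4:**
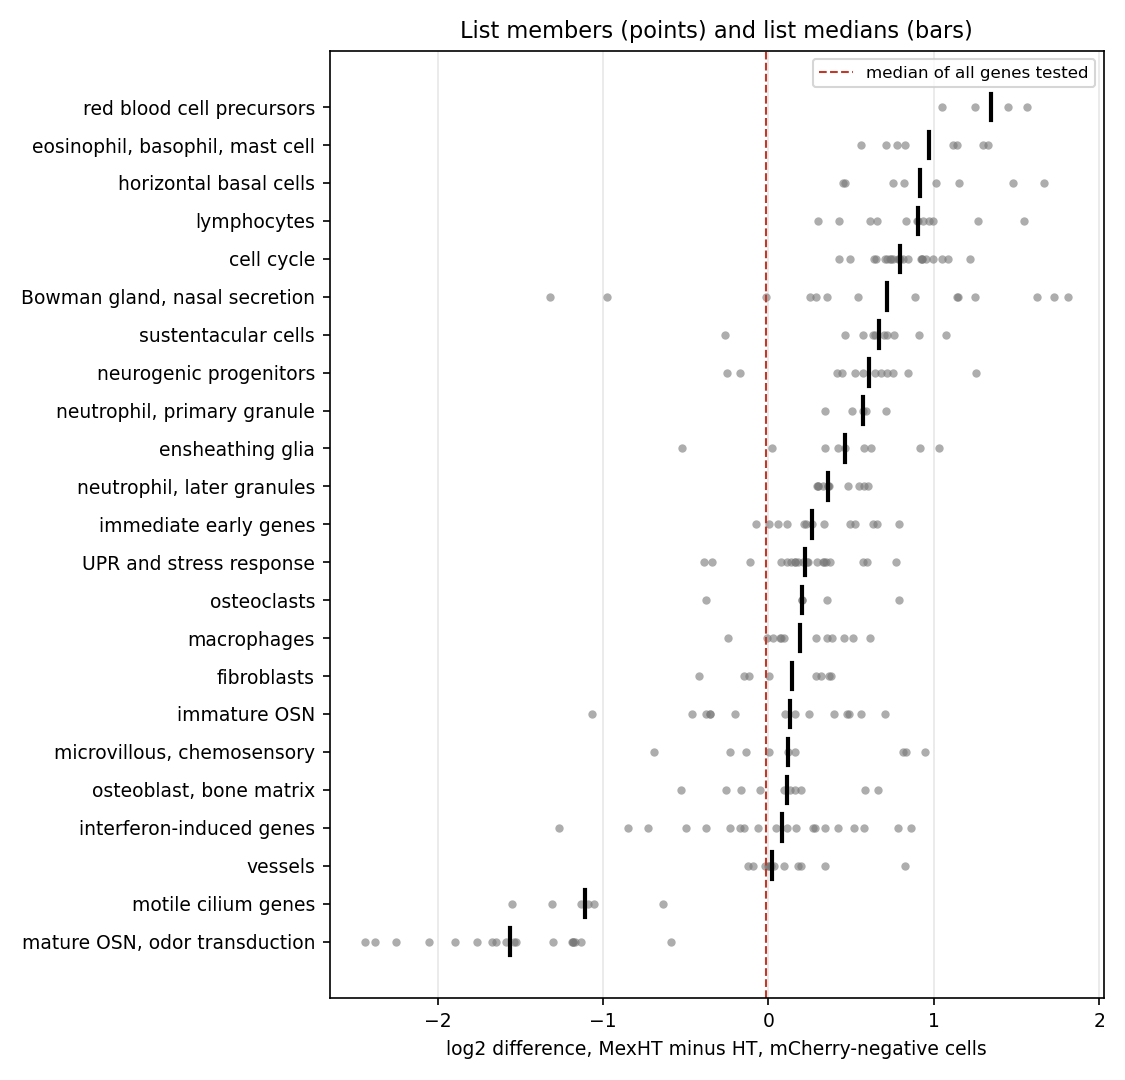
Log2 difference (MexHT minus HT, negative cells) of each tested list member as a grey point, with a black bar at the list median and a dashed line at the median of all genes tested. The mature OSN list lies entirely below 0 with a median of -1.56, and cell cycle genes lie entirely above 0 with a median of 0.79.

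Sustentacular and basal cell genes of the epithelium lay mostly above 0, and both sums were highest in MexHT replicate 1. Of 10 sustentacular genes, 9 were above 0 (median 0.67), and the median ranged from 0.13 to 1.03 when each library was left out. Their levels summed to 3981, 1058, 1724, 1643 and 985.8 TPM in MexHT and 1424, 926.3 and 701.8 TPM in HT, so MexHT replicate 1 held more than any other library. The xenobiotic enzyme gene Cyp2g1 was at 155 TPM in that library and at 6.957 to 42.25 TPM in the other 7. The keratin gene Krt8 did not overlap between groups, with 224.7 to 558.7 TPM in MexHT and 121 to 202.8 TPM in HT (log2 difference 1.07 ± 0.33, limma adjusted p = 0.218). Genes of horizontal basal cells, the reserve stem cells of the epithelium, were above 0 for 8 of 8 (median 0.92). By limma 2 (25%) had an unadjusted p under 0.05 and higher values in MexHT, beside 7.22% of all genes. Without MexHT replicate 1 the median was 0.60, with 7 of 8 above 0. Krt5, the defining keratin of horizontal basal cells, stood at 432.4, 79.24, 75.95, 146.4 and 63.31 TPM in MexHT and 74.1, 59.99 and 68.68 TPM in HT (log2 difference 0.82 ± 0.56), with MexHT replicate 1 again the highest. Icam1, an adhesion molecule gene of these cells, was at 52.68 to 127.5 TPM in MexHT and 31.63 to 48.11 TPM in HT, without overlap (log2 difference 1.01 ± 0.27, limma adjusted p = 0.218).

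Of 14 gland and nasal secretion genes, 11 were above 0 (median 0.72), and 6 (42.9%, beside 7.22% of all genes) had an unadjusted p under 0.05 and higher values in MexHT. That number was 2, with 2 lower, without HT replicate 2, 3 without HT replicate 3, 4 without MexHT replicate 1 and 2 with all 4 groups in one fit or with the Xist level in it. The summed level was highest in MexHT replicate 3. Lcn3, a lipocalin gene of nasal secretions, stood at 350.6, 49.38, 266.1, 307.7 and 127.9 TPM in MexHT and 86.59, 44.04 and 32.98 TPM in HT (log2 difference 1.81 ± 0.63, limma adjusted p = 0.218). The odorant-binding protein gene Obp2b differed by 1.73 ± 0.50 and the water channel gene Aqp5 by 1.14 ± 0.41, the latter without overlap. The secreted protein genes Bpifb9a and Bpifb9b went the other way, at -1.32 ± 0.92 and -0.98 ± 0.95, and HT replicate 3 was the highest library for both. Microvillous and chemosensory genes lay on both sides of 0, with 6 of 9 above and a median of 0.12 that ranged from -0.24 to 0.31 when each library was left out. The ionocyte genes Foxi1 (0.12 ± 0.53), Cftr (0.001 ± 0.59) and Ascl3 (-0.24 ± 0.64) were near 0, while the tuft-type genes Trpm5, Avil and Il25 differed by 0.83 ± 0.44, 0.95 ± 0.35 and 0.82 ± 0.39. Pou2f3, the regulator of the tuft type, lay on the other side at -0.69 ± 0.29.

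Blood and marrow genes were abundant in both groups. Genes of the later neutrophil granules were above 0 for 11 of 11 (median 0.36) and those of the primary granule, made by neutrophil precursors, for 5 of 5 (median 0.57), with 0 of the 16 at an unadjusted p under 0.05. With the Xist level in the fit the medians were 1.265 and 1.387, and 11 of 11 and 3 of 5 had an unadjusted p under 0.05. Over all genes 4046 did in that fit, in either direction. Ngp, a granule protein gene of developing neutrophils, stood at 1664, 2536, 2481, 3095 and 3149 TPM in MexHT and 2307, 1180 and 2987 TPM in HT. HT replicate 2 was the lowest library for both granule sums, and without it the later granule median was -0.06 (3 of 11 above 0) and the primary granule median 0.12 (3 of 5), so neither direction over the whole list held without that library. Eosinophil, basophil and mast cell genes were above 0 for 8 of 8 (median 0.97). By limma 6 (75%) had an unadjusted p under 0.05 and higher values in MexHT, beside 7.22% of all genes. That number was 1 with the replicate number as a block and 1 without HT replicate 2. Prg3, an eosinophil granule protein gene, stood at 18.74, 27.56, 27.98, 37.01 and 58.86 TPM in MexHT and 15.51, 7.641 and 14.43 TPM in HT, without overlap (log2 difference 1.33 ± 0.36, limma adjusted p = 0.218). Lymphocyte genes were above 0 for 12 of 12 (median 0.90), and 4 of them (33.3%, beside 3.64% of all genes) did not overlap: Ms4a1, Cd79a, Cd79b and Vpreb1. Vpreb1, the surrogate light chain gene of B cell precursors, stood at 7.471, 15.61, 13.33, 13.01 and 26.73 TPM in MexHT and 2.178, 4.721 and 6.644 TPM in HT (log2 difference 1.54 ± 0.40, limma adjusted p = 0.218). The antigen receptor partner gene Cd79a differed by 1.00 ± 0.25.

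Red blood cell precursor genes had a median of 1.35 over 4 tested genes, with 4 of 4 above 0. It was 0.93 without HT replicate 1, 1.89 without MexHT replicate 1 and 0.72 with the replicate number as a block. By limma 0 of the 4 genes had an unadjusted p under 0.05 with all libraries and no block, 4 did without MexHT replicate 1 and 3 with the block or with all 4 groups in one fit. Slc4a1, the anion exchanger gene, stood at 52.9, 138.9, 408.7, 599.7 and 341.1 TPM in MexHT and 42.51, 85.94 and 155.6 TPM in HT (log2 difference 1.45 ± 0.77, limma adjusted p = 0.298). Klf1, the erythroid regulator, and Alas2, the heme synthesis enzyme gene, differed by 1.25 ± 0.81 and 1.05 ± 0.52. MexHT replicates 3, 4 and 5 were above the other 5 libraries for each of these 3 genes. The defining globin genes that matched by name, Hba-a2 and Hbb-bs, were at 0 in HT and at most 0.8938 TPM in MexHT.

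Macrophage genes also lay mostly above 0, but with a small median. Of 12, 10 were above 0, with a median of 0.19. Without MexHT replicate 1 or without HT replicate 2, 5 of 12 were above 0. With the Xist level in the fit 12 of 12 were, with a median of 1.01. Csf1r, the receptor on which macrophages depend, stood at 67, 40.35, 49.61, 47.9 and 58.27 TPM in MexHT and 48.53, 25.05 and 50.53 TPM in HT (log2 difference 0.38 ± 0.25, limma adjusted p = 0.385). The complement genes C1qa, C1qb and C1qc differed by -0.24 ± 0.56, 0.08 ± 0.56 and -0.01 ± 0.52. In the sorted neurons, by contrast, the median of this list was -2.56. There 12 of 12 genes were lower in MexHT past the adjusted threshold, beside 36.8% of all genes in either direction. The interaction of construct and fraction passed it for 12 of 12, beside 12.4% of all genes. The list summed to 323.5 to 629.3 TPM in the MexHT neurons and to 1448 to 6135 TPM in the HT neurons. In the HT negative cells it summed to 761.8 to 2054 TPM. The source of macrophage RNA in the sorted neurons was not tested.

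Bone, connective tissue and vessel genes had medians near 0 between constructs, and those of ensheathing glia, which wrap the olfactory axons, a higher one. Osteoblast and bone matrix genes had a median of 0.11 (6 of 10 above 0), fibroblast genes 0.14 (5 of 8), vessel genes 0.02 (8 of 12), osteoclast genes 0.21 (4 of 5) and ensheathing glia genes 0.46 (8 of 9). The glia median was 0.08 without MexHT replicate 1, with 4 of 8 genes above 0. Col1a1 stood at 6271, 9684, 8166, 11807 and 14353 TPM in MexHT and 8097, 4794 and 10847 TPM in HT (log2 difference 0.37 ± 0.37). Ibsp, the bone sialoprotein gene, stood at 809.4, 853.9, 803, 921.1 and 1144 TPM in MexHT and 1074, 354.7 and 1445 TPM in HT (log2 difference 0.13 ± 0.40). HT replicate 2 was the lowest library for both, and the fibroblast median was -0.45 and the osteoblast median -0.55 without it. Without HT replicate 3 they were 0.50 and 0.57, and the vessel median went from -0.395 to 0.46 between the same 2 fits. In the glia list Ngfr, the low-affinity neurotrophin receptor gene, and Erbb3, the neuregulin receptor gene, did not overlap and were higher in MexHT, 22.2% of the list beside 3.64% of all genes (log2 differences 1.03 ± 0.26 and 0.62 ± 0.24, limma adjusted p = 0.218 and 0.221). Sox10, the glial regulator, differed by 0.58 ± 0.42 and was highest in MexHT replicate 1, at 13.96 TPM.

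Stress and signalling genes lay mostly above 0. Unfolded protein and integrated stress response genes were above 0 for 17 of 20 (median 0.22), and 4 (20%) had an unadjusted p under 0.05 and higher values in MexHT, beside 7.22% of all genes. That number was 1 without MexHT replicate 3 or with all 4 groups in one fit, and 2 without MexHT replicate 4, without HT replicate 2 or with the Xist level in the fit. The chaperone gene Hspa5 stood at 840, 690.8, 878.5, 797 and 773.6 TPM in MexHT and 623.7, 601.4 and 658.5 TPM in HT, without overlap (log2 difference 0.34 ± 0.12, limma adjusted p = 0.218). The stress factor genes Atf3 and Ddit3 differed by 0.77 ± 0.36 and -0.39 ± 0.16, and Atf5, which immature OSN use when an odorant receptor is first made, by -0.34 ± 0.22. Immediate early genes were above 0 for 12 of 13 (median 0.27), with 3 (23.1%) at an unadjusted p under 0.05 and higher in MexHT. The median was 0.14 both without HT replicate 2 (8 of 13 above 0) and without MexHT replicate 1 (9 of 13), and the number was 1 without HT replicate 3. Fos stood at 1882, 1069, 834.5, 900.8 and 956 TPM in MexHT and 1290, 645.2 and 963.3 TPM in HT. Nr4a1 and Btg2 did not overlap, 15.4% of the list beside 3.64% of all genes (0.66 ± 0.20 and 0.52 ± 0.20). Interferon-induced genes were split, with 11 of 20 above 0 (median 0.08). Without HT replicate 2 the median was -0.26, with 6 of 20 above 0. The sensor gene Ddx58 and the nucleotide kinase gene Cmpk2 were lower in MexHT without overlap (-0.38 ± 0.17 and -0.73 ± 0.20), 10% of the list beside 5.07% of all genes. The regulator Irf7 was higher without overlap (0.58 ± 0.19), 5% of the list beside 3.64% of all genes.

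Single genes were named by the lowest unadjusted limma p among those whose groups did not overlap, 10 in each direction, and each had an adjusted p of 0.218. Il1rn, the antagonist of the interleukin 1 receptor, stood at 83.47, 72.28, 91.05, 101.5 and 105.8 TPM in MexHT and 47.5, 35.34 and 35.03 TPM in HT (log2 difference 1.19 ± 0.16, SE). The regulators Klf5 and Ets2, known from epithelial growth, differed by 1.01 ± 0.16 and 0.81 ± 0.14, and the kinase gene Sik1, which cAMP induces, by 0.97 ± 0.16. Gprc5a, an orphan receptor gene induced by retinoic acid, had the highest of these differences, 1.43 ± 0.24, from 3.89 to 7.542 TPM in HT and 11.58 to 19.46 TPM in MexHT. The lipase gene Lipg (1.06 ± 0.18), the phosphatase gene Acpp (0.87 ± 0.14), the cargo receptor gene Tmed5 (0.79 ± 0.13), the lipid scramblase gene Plscr1 (0.66 ± 0.11) and D16Ertd472e (1.102 ± 0.17) completed the higher set.

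In the lower set Zfp78, a zinc finger gene, stood at 9.084, 10.54, 6.09, 5.494 and 4.316 TPM in MexHT and 23.27, 24.37 and 24.11 TPM in HT (log2 difference -1.68 ± 0.26). The groups did not overlap, as the rule required. Mgmt, which repairs alkylated guanine in DNA, stood at 14.01, 15.97, 9.764, 15.69 and 10.68 TPM in MexHT and 30.64, 30.65 and 26.56 TPM in HT (log2 difference -1.11 ± 0.19). The membrane protein genes Smim5 and Smim20 differed by -1.21 ± 0.23 and -0.72 ± 0.14, the thrombospondin gene Thbs3 by -0.91 ± 0.16 and Fra10ac1 by -0.62 ± 0.10. Olfr1392, given above, and 3 Y-linked genes made up the rest. When all 4 groups of sorted and negative cells shared 1 estimate of the spread, 23 genes (0.136%) passed, among them Zfp78 (adjusted p = 0.023), Mgmt (0.0145) and Olfr1392 (0.0433).

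**Figure D5:**
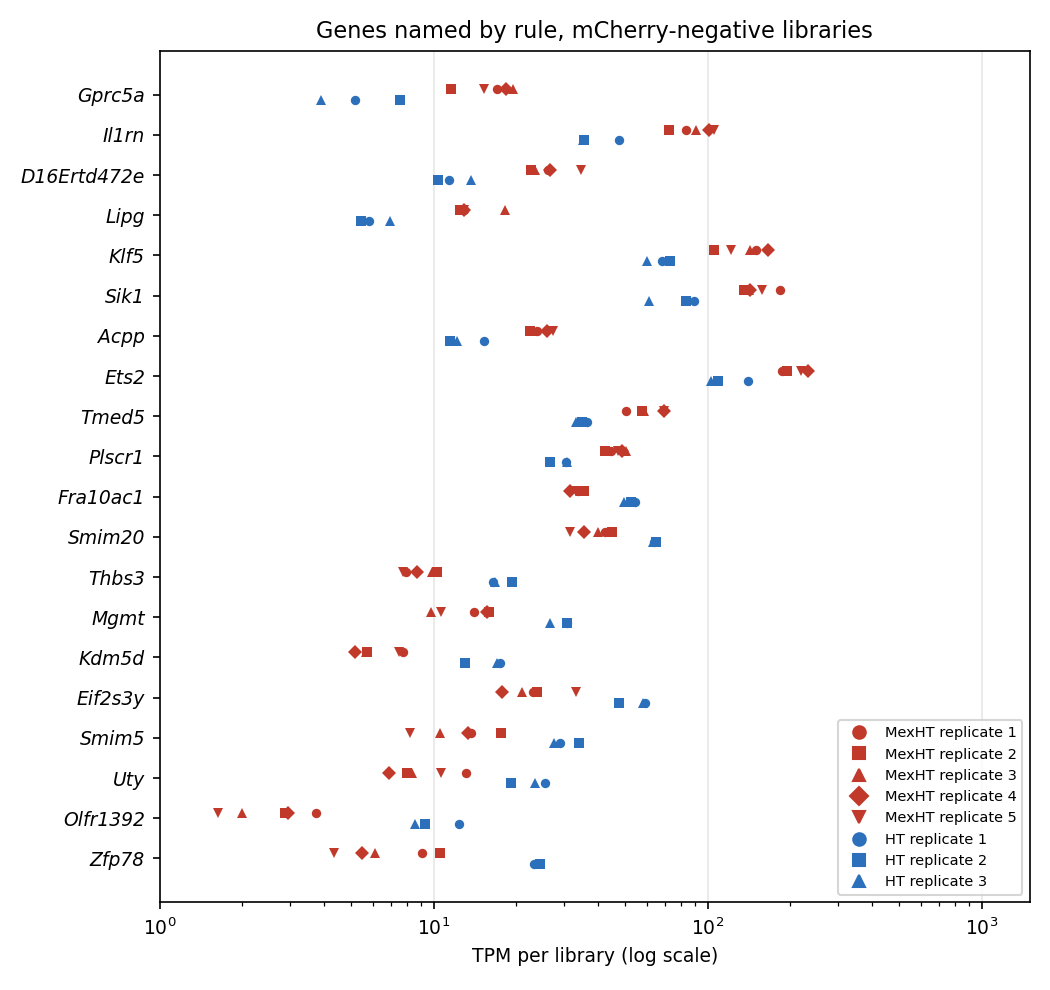
TPM per library (log axis) of the 10 genes higher and 10 lower in MexHT negative cells named by the rule, with MexHT in red and HT in blue and 1 symbol shape per replicate number. The groups do not overlap for any of the 20, which the rule required, and each has an adjusted p of 0.218.

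The Y-linked genes and Xist differed between the groups, and this touches each comparison above. Xist, the RNA of the inactive X chromosome, stood at 55.27, 134.3, 162.5, 151.1 and 89.02 TPM in MexHT and 0.09337, 76.54 and 0.1349 TPM in HT. The Y-linked genes Kdm5d, Uty and Eif2s3y were lower in MexHT without overlap (log2 differences -1.20 ± 0.19, -1.21 ± 0.22 and -1.20 ± 0.19). Eif2s3y, a translation initiation factor gene, stood at 23, 23.84, 20.95, 17.74 and 33.06 TPM in MexHT and 59.33, 47.56 and 58.23 TPM in HT. All 5 MexHT libraries and HT replicate 2 thus held both Xist and Y-linked RNA, while HT replicates 1 and 3 held Y-linked RNA with Xist near 0. A library may therefore not be 1 mouse, and whether libraries pooled mice was not tested. With the Xist level in the fit, 0 genes passed, the mature OSN median was -2.03 with 1 of 18 genes at an unadjusted p under 0.05, and the medians of fibroblasts, osteoblasts and vessels moved to 1.23, 1.35 and 1.11. The medians of the later and primary neutrophil granule lists moved to 1.265 and 1.387, and further lists moved as well.

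The construct difference in negative cells was set against that in the sorted neurons of the same design by an interaction over 17 libraries, where 2086 of 16785 genes (12.4%) passed. For Mex3a the interaction, the difference in negative cells minus that in neurons, was -2.55 (limma adjusted p = 0.0204), and for Adar it was 1.31 (adjusted p = 0.0519). For mature OSN genes 0 of 18 passed: their median was -1.56 in negative cells and -1.42 in neurons, where 15 of 18 were lower past the threshold. For immature OSN genes 4 of 14 passed, with medians of 0.13 in negative cells and 0.85 in neurons. A p that misses the threshold does not show that the fractions act alike. The fractions with the same construct and replicate number were taken to share their mouse or mice. A fit with construct and replicate number as a block gave 2603 genes.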

How the data were processed

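RNA of sorted cells was sequenced from strand-marking libraries of total RNA made with a low-input kit, per the labels' protocols. The authors deposited TPM values per gene in 1 table for the 17 libraries of mice with both drivers. The submitters' processing notes name FastQC, cutadapt, STAR, bedtools and mm10, and the counting program is not given in the sources used here. The 27 rows whose symbols had become dates (up to 0.221% of a library) were dropped. Whole counts were recovered from TPM for 23614 of 23614 genes (100.0%, within 0.01 counts, where wrong factors gave 0.0% of 300 genes) and gave the depth. Replicates of a group differed beyond counting error.

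Levels were compared with limma 3.58.1 in R 4.3.3 (mean trend) on log2(TPM + 1) for genes averaging 1 TPM or more in the libraries fitted, Benjamini-Hochberg threshold 0.05, two-sided, after a check on simulated data. Exact permutation tests used scipy 1.17.1. The gene lists and libraries were chosen with earlier results of these data known, and list counts are descriptions. Single genes were Mex3a and Adar, list members, the 10 highest, and per direction 10 genes of lowest unadjusted p with at least 5 TPM in the higher group and no overlap, passing over predicted genes, pseudogenes and small RNAs. Same-numbered negative libraries of the constructs deviated together (correlations 0.331, 0.335 and 0.385 in the data, other numbers -0.275 to -0.08). In each construct the deviations were taken from the mean of replicates 1, 2 and 3. Same-number values above 0 therefore pull the other values below 0, and the contrast is not independent evidence of pairing. The numbers were taken to pair the libraries from these same data, although the labels give no shared mouse. In the replicate block of the negative cells, MexHT replicates without an HT library of the same number do not inform the construct difference. Alternatives were another pseudocount, no filter, median-of-ratios scaling, voom on recovered counts, the replicate block, all 4 groups in one fit, the Xist level as a covariate, and each library left out. Editing sites and the mice with gg8tTA alone were not analysed here, and 1 list member is not reported here by name.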

Additional observations from a re-analysis of the deposited data

Results flagged for a closer look

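In groups of 5 MexHT negative libraries, 5 of 52 values tested held a library far from the rest, where chance gives about 1 in 20. In MexHT replicate 1 the summed primary granule genes were lowest, at 1137 TPM against 2309 to 2850 TPM in the other 4, the summed immediate early genes highest, at 10147 TPM against 5566 to 5852 TPM, and the summed abundant noncoding RNAs highest, at 20183 TPM against 14087 to 15281 TPM. Lipg was highest in MexHT replicate 3, at 18.2 TPM against 12.52 to 12.9 TPM. The number of genes at 1 TPM or more was lowest in MexHT replicate 5, at 16143.

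The construct difference in negative cells differed from that in sorted neurons for 8 of the single genes named, by the limma interaction (adjusted p in brackets), which 12.4% of all genes passed. Apart from Mex3a, these genes had been picked for their difference in negative cells, which is a term of the interaction, so their values are a description. It was -2.55 for Mex3a (0.0204), 2.14 for Il1rn (0.00634), 1.63 for Acpp (0.0231), 1.5 for Ets2 (0.00207), 1.37 for Tmed5 (0.00922), 1.13 for Plscr1 (0.00659), -1.33 for Zfp78 (0.0259) and -0.68 for Mgmt (0.0461), each on the log2 scale as negative cells minus neurons.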

How the results depend on the processing

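The count of 0 genes past the threshold became 1 with no filter on low values (Scarna3b) and 23 with all 4 groups in one fit (0.136%). The 23 included Nr4a2, Fosl1 and Fosl2, higher in MexHT. Leaving out each library gave 0 to 4 genes, with Xist among the 4 without HT replicate 2. Over the same leave-one-out fits the count at an unadjusted p under 0.05 ranged from 1383 to 5082, the interaction count from 1195 (without HT replicate 2) to 2314, the Mex3a log2 difference from 0.748 to 1.405 and the difference in genes detected from -359.3 to -168.8. The block of construct and replicate number gave 2603 interaction calls. With the replicate number as a block in the negative cells, 0 genes passed and 3311 had an unadjusted p under 0.05. The Mex3a difference was then 0.92 over 3 pairs (exact permutation p = 0.25, the smallest 3 pairs can give). The block changed no other call. For single genes 327 of 330 alternatives kept direction and side of the threshold, and Olfr1392, Zfp78 and Mgmt passed with all 4 groups in one fit. For lists 419 of 435 medians moved by less than the spread between libraries. Of the 16 that moved, 14 did so with the Xist level in the fit, where the immature OSN median turned to -0.16, and 2 without HT replicate 2, fibroblasts at -0.45 and interferon-induced genes at -0.26. The cause was not tested. With 5 against 3 libraries, 0 of 18 mature OSN genes passed after adjustment. Whether differences as variable as theirs could be detected with so few libraries was not tested. The 6727 of 23587 genes averaging under 1 TPM were not tested at this depth.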
